A study of Mus musculus with 65 samples.

Results

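This account covers 10 genes of the step that commits a cell to divide: the D-type cyclins Ccnd1, Ccnd2 and Ccnd3, their kinases Cdk4 and Cdk6, cyclin E1 (Ccne1) and its kinase Cdk2, the transcription factors E2f1 and E2f3, and the retinoblastoma gene Rb1. They were chosen by name for their place in one pathway and not by their values, though with earlier results of these data known. All 10 were found among the 10407 genes of the deposited tables. Messenger RNA of 65 single wild-type CD1 mouse cells from the embryonic cortex had been sequenced by Patch-seq, in which a cell's content is drawn into a pipette, with 1 library per cell. The cells fall into 20 Flash Tag cells of embryonic day 12 (E12), 26 Flash Tag cells of embryonic day 15 (E15) and 19 E15 cells placed in an E12 host, called transplanted cells here. Flash Tag is a dye that marks cells dividing at the ventricular surface. The study asked how apical progenitors, the stem cells lining the ventricle, behave in a younger host. All animals are labelled as the same strain and as wild type, and no embryo, litter or host is named, so a group was treated as a single sample and no p-value was computed.

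D-type cyclins are made in response to growth signals and bind Cdk4 or Cdk6. These kinases add phosphate to the retinoblastoma protein, which otherwise holds E2F factors inactive on the promoters of genes for DNA synthesis. Released E2F factors switch on cyclin E among other genes, cyclin E activates Cdk2, and Cdk2 completes the phosphorylation, so that the cell passes from G1 into S phase. In the developing cortex the length of G1 increases as neurogenesis proceeds, and D-type cyclins and their kinases are known to influence whether a progenitor divides again or gives rise to a neuron.

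Levels are given as CPM, read counts scaled to the same total in every library, taken over the genes in the tables, and a group's level is the CPM of the reads of its cells added up, so that deep libraries weigh more. Bounds in parentheses are exact 95% limits for the counting error of reads only, and leave out the spread between cells. PCR copies of 1 molecule were not told apart, so the bounds are too narrow for molecules. Libraries held 10928 to 4560871 reads, with medians of 148824 in E12, 998630 in E15 and 166134 in transplanted cells. Libraries with reads of more than 8000 genes, called many-gene libraries here, numbered 16, 11 of them E15 and 5 transplanted and none E12. The summed level of 14 microglia and macrophage markers, all with reads, ranged from 0 to 563 CPM in E12, from 2.64 to 10589 CPM in E15 and from 0 to 25915 CPM in transplanted cells. In the many-gene libraries it had a median of 2652 CPM against 106 in the other 49 libraries. The sum of 14 measured ventral telencephalon and interneuron markers had medians of 3618 against 365 CPM, while that of 15 apical progenitor markers was 2824 against 9968 CPM. The main group levels, ratios and counts are therefore also given without these many-gene libraries, while values per cell take all libraries unless stated. All 15 apical progenitor markers had reads in each group, and their sum ranged from 952 to 41506 CPM over the cells. Markers of 5 erythroid genes summed to 2958 CPM in E12, 2636 CPM in E15 and 15773 CPM in transplanted cells, and no gene of the pericyte or Cajal-Retzius lists was in the tables. The deepest E12 library (replicate 5) held 33.1% of the E12 reads. Transplanted replicate 19, with reads of 7827 genes and so just under the limit of 8000, held 55.7% of the transplanted reads outside the many-gene libraries. The part of markers and of single deep libraries in the results below was not tested, except where values without a library are given.

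Ccnd2 (chr6:127125162-127152188, RefSeq on GRCm38.p6), the D-type cyclin typical of cortical progenitors, was read in 20 of 20 E12, 25 of 26 E15 and 19 of 19 transplanted cells. Its lowest, median and highest cell had 80.1, 1429 and 3060 CPM in E12. In E15 the same 3 values were 0, 974 and 6903 CPM. Transplanted cells had 76.6, 1094 and 6625 CPM. The ranges overlapped, and 10 of 26 E15 cells and 6 of 19 transplanted cells lay outside the range of the E12 cells, while the 3 medians lay closer together than the cells within any group. Summed over cells, Ccnd2 stood at 1959 CPM (1920 to 1998) in E12, 2977 (2959 to 2994) in E15 and 1776 (1753 to 1799) in transplanted cells. The E15 level came largely from the many-gene libraries, where all 16 cells together ranged from 275 to 6903 CPM with a median of 3373. Without them E15 fell to 1245 CPM and transplanted cells stood at 2355 CPM, so that the order of the groups turned. The log2 ratio of E15 over E12 was 0.60 with all libraries and -0.65 without these, and that of transplanted over E15 cells was -0.74 and 0.92. E12 replicate 5 held 51.02% of the E12 reads of Ccnd2, and without it the E15 over E12 ratio was 1.05. No direction for Ccnd2 held over these choices of libraries.

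Ccnd1 (chr7:144929931-144939831), the D-type cyclin most often tied to growth-factor signalling, was far more scattered among cells. It had a read in 10 of 20 E12, 15 of 26 E15 and 11 of 19 transplanted cells. From a lowest value of 0 in each group, the median and highest cells had 5.03 and 542 CPM in E12, 1.65 and 249 CPM in E15, and 15.1 and 272 CPM in transplanted cells. Among cells outside the many-gene libraries, 4 of 15 E15 and 6 of 14 transplanted cells had a read, with a median of 0 CPM in both groups. Single high cells stood beside many at 0 in each group, and the groups overlapped. Summed, Ccnd1 stood at 43.7 CPM (38.1 to 49.9) in E12, 16.4 (15.1 to 17.8) in E15 and 44.2 (40.6 to 48.0) in transplanted cells. E15 cells were 2.66 times (2.27 to 3.12) lower than E12 cells and transplanted cells 2.69 times (2.40 to 3.02) higher than E15 cells. The transplanted over E12 log2 ratio was 0.02, but it ran from -0.55 without E12 replicate 5 to 0.59 without E12 replicate 13, was 0.48 without the many-gene libraries and was -0.70 with cells thinned to 25000 reads, so no direction held between these groups. The ratios shrank to 1.41 (1.19 to 1.68) and 1.98 (1.68 to 2.32) without the many-gene libraries, in the same directions. With these left out, however, the E15 over E12 log2 ratio of -0.49 was 0.09 without E12 replicate 13 and -1.67 without E15 replicate 6, which held 66.9% of these E15 reads. Within pools A to H, a label whose meaning is not defined, Ccnd1 was lower in E15 than in E12 cells in 7 of 8 pools, and higher in transplanted than in E15 cells in 4 of 7. Transplanted replicate 19 held 34.0% of the transplanted Ccnd1 reads and the log2 ratio over E15 without it was 1.11 in place of 1.38, or 0.53 in place of 0.96 without the many-gene libraries.

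Ccnd3 (chr17:47505051-47599689), the third D-type cyclin, was low in most cells and very high in a few. It had a read in 15 of 20 E12, 25 of 26 E15 and 16 of 19 transplanted cells, with medians of 39.2, 18.2 and 8.52 CPM and highest values of 952, 6444 and 379 CPM. In the E15 cell with 6444 CPM (replicate 24) it was read 159 times in 24673 reads, while Ccnd2 was read only 2 times. Group sums were 108 CPM (99.1 to 118) in E12, 34.5 (32.7 to 36.5) in E15 and 15.96 (13.8 to 18.3) in transplanted cells, or 3.13 times (2.82 to 3.46) lower in E15 than in E12. These differences moved with the pool. Of the 6 cells highest in Ccnd3, 5 were from pool E, and its 9 cells held 54.9% of all Ccnd3 reads but 11.6% of all reads. Every cell of pool E had at least 59.1 CPM, with a median of 379, against a median of 9.04 CPM and a highest value of 344 CPM over the 56 cells of the other pools. In pool H only 2 of 7 cells had a read, at most 5.51 CPM. Pool E holds 4 E12, 4 E15 and 1 transplanted cell. Without it, Ccnd3 stood at 20.8 CPM in E12, 21.5 in E15 and 11.2 in transplanted cells, and the log2 ratio of E15 over E12 went from -1.62 to 0.05. Leaving out the many-gene libraries also brought it to -0.06, since E15 then stood at 104 CPM.

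Reads of the 3 D-type cyclins together came mostly from Ccnd2, although reads of different genes compare only roughly because capture at the 3′ end differs between transcripts. Ccnd2 made up 92.8% (92.3 to 93.3) of them in E12, 98.3% (98.2 to 98.4) in E15 and 96.7% (96.5 to 96.9) in transplanted cells. Leaving out the many-gene libraries, its share was 90.2% in E15 and 96.2% in transplanted cells. It was the larger part of the D-type cyclin reads in 19 of 20 E12, 24 of 26 E15 and 19 of 19 transplanted cells. Ccnd2 thus came first in nearly every cell of all 3 groups, and Ccnd3 was the larger part in 2 E15 cells.

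**Figure D1:**
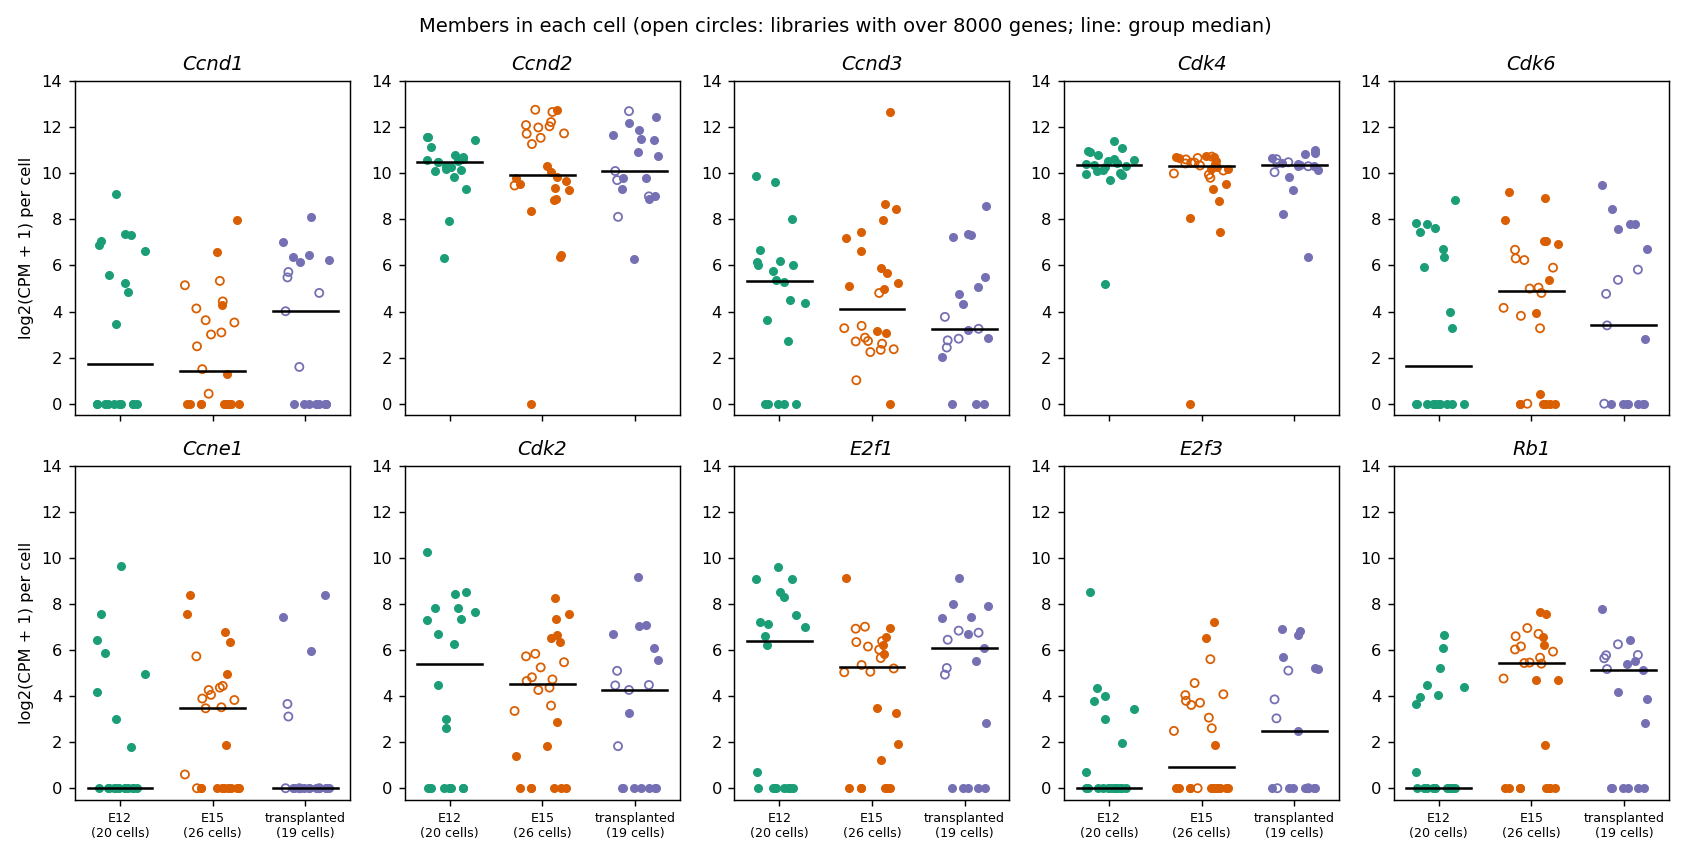
Level of each of the 10 genes in every cell, as log2(CPM + 1) on the vertical axis, for 20 E12, 26 E15 and 19 transplanted cells on the horizontal axis. Open circles are the 16 libraries with more than 8000 genes and the black line is the group median. Ccnd2 and Cdk4 are high in nearly all cells, while the other 8 genes have cells at 0 in every group.

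Cdk4 (chr10:127063535-127067288), a partner kinase of the D-type cyclins, had the steadiest level of the 10 genes. It was read in 20 of 20, 25 of 26 and 19 of 19 cells. E12 cells ranged from 35.2 to 2719 CPM with a median of 1328. E15 cells ranged from 0 to 1697 CPM with a median of 1264. Transplanted cells ranged from 81.1 to 2089 CPM with a median of 1322. The medians were almost the same and the ranges overlapped throughout. Summed levels were 1372 CPM (1340 to 1405) in E12, 1314 (1302 to 1325) in E15 and 1341 (1321 to 1361) in transplanted cells. The log2 ratio was -0.06 between E15 and E12, 0.03 between transplanted and E15 and -0.03 between transplanted and E12 cells, and became -0.11, -0.06 and -0.17 once many-gene libraries were left out. The 1 cell without a Cdk4 read (E15 replicate 3, with 63373 reads) was also the 1 cell without a Ccnd2 read, and its apical progenitor markers summed to 1988 CPM, near the low end of all cells.

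The promoter of Cdk4 is shown because it is the member with an even level in all groups and because its window holds the letters CACGTG, the core bound by Myc and related factors, at 4 places. The line below gives the 250 bases before the start of a RefSeq transcript on the plus strand (chr10:127063285-127063534, GRCm38.p6), 5′ to 3′, with each CACGTG in capitals.
Cdk4: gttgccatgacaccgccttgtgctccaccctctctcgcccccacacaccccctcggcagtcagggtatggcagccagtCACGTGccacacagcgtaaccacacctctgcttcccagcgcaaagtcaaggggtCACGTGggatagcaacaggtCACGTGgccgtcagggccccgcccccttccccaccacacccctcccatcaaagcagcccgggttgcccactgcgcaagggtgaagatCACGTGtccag
CACGTG, which reads the same on both strands, occurs 4 times in it. Of 32851 such windows from RefSeq, 6.02% hold it at least 1 time and 7 windows hold it 4 times or more. Windows of the members were found for 7 of the 10 genes, and Cdk6 and the second of 2 windows of E2f3 hold it 1 time each. A match is a description of the letters only.

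Cdk6 (chr5:3341004-3531008), the other kinase partner of D-type cyclins, was read in 10 of 20 E12, 19 of 26 E15 and 11 of 19 transplanted cells. Its median and highest cells had 4.38 and 458 CPM in E12, 28.9 and 588 CPM in E15, and 9.54 and 708 CPM in transplanted cells, with cells at 0 in each group. Medians and sums went opposite ways: the sums were 124 CPM (115 to 134) in E12, 44.4 (42.3 to 46.6) in E15 and 58.7 (54.6 to 63.1) in transplanted cells. A read was found in 9 of 15 E15 and 7 of 14 transplanted cells outside the many-gene libraries, with medians of 14.3 and 3.01 CPM. E12 replicate 5 alone held 60.9% of the E12 reads of Cdk6. Without that cell E12 stood at 72.6 CPM and the log2 ratio of E15 over E12 was -0.70 in place of -1.46. On the mean CPM of cells, which weighs each cell alike, the ratio was 0.13. Without the many-gene libraries the E15 over E12 ratio was -0.88, and -0.11 when E12 replicate 5 was left out too. Transplanted over E15 cells gave 0.40, and 0.83 without the many-gene libraries. Leaving out transplanted replicate 2 brought these to -0.08 and 0.18, and the mean of ratios within pools was -0.39, so that the direction over all libraries rested on 1 cell.

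Ccne1 (chr7:38097984-38107490), the cyclin that activates Cdk2 late in G1, was read in 8 of 20 E12, 16 of 26 E15 and 5 of 19 transplanted cells. Median cells had 0, 10.2 and 0 CPM and the highest cells 791, 336 and 336 CPM. Most cells of E12 and most transplanted cells were thus at 0 beside single high cells. A read was found in 6 of 15 E15 and 3 of 14 transplanted cells outside the many-gene libraries, with a median of 0 CPM in both groups. Sums were 40.3 CPM (34.9 to 46.3) in E12, 16.7 (15.4 to 18.04) in E15 and 9.75 (8.11 to 11.6) in transplanted cells. A single library weighed heavily again, since E12 replicate 5 held 69.3% of the E12 reads. Without it E12 stood at 18.4 CPM and the log2 ratio of E15 over E12 went from -1.22 to -0.14. Outside the many-gene libraries E15 stood at 22.9 and transplanted cells at 15.1 CPM. The E15 over E12 log2 ratio was then -0.79, and 0.30 when E12 replicate 5 was left out too. Transplanted replicate 2 held 78.6% of these transplanted reads. After thinning each cell to 25000 reads, Ccne1 was read in 5 of 18 E12, 9 of 24 E15 and 4 of 17 transplanted cells.

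Cdk2 (chr10:128697938-128705051), the kinase that cyclin E and later cyclin A activate, was lower in E15 and in transplanted cells than in E12 cells. It was read in 13 of 20 E12 cells, with a median of 48.7 and a highest value of 1209.85 CPM. In E15 it was read in 20 of 26 cells, with 21.9 and 305 CPM. In transplanted cells it was read in 12 of 19, with 18.2 and 578 CPM. Among cells outside the many-gene libraries, 9 of 15 E15 and 7 of 14 transplanted cells had a read, with medians of 2.53 and 4.31 CPM. The highest cells were in E12, but cells at 0 in every group kept the ranges overlapping. Sums were 159 CPM (148 to 170) in E12, 44.6 (42.5 to 46.8) in E15 and 45.6 (42.0 to 49.5) in transplanted cells. Cdk2 was 3.56 times (3.26 to 3.88) lower in E15 and 3.48 times (3.12 to 3.88) lower in transplanted than in E12 cells. Leaving out many-gene libraries, it was 1.99 times (1.81 to 2.20) and 1.85 times (1.64 to 2.09) lower, and the second of these, a log2 ratio of -0.88, was -0.23 without transplanted replicate 19. The direction was the same in 7 of 8 pools for E15 and in 6 of 7 pools for transplanted cells, and it held when any 1 cell was left out, with or without the many-gene libraries. E15 and transplanted cells differed by a log2 ratio of only 0.03, or 0.11 without the many-gene libraries.

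The promoters of Cdk2 and E2f3 are shown because their windows hold letters of the type that E2F factors bind. The words searched on both strands were TTCCCGC first, then also the word TTGGCGC, after it the word TTGCCGC and last of all the word TTCGCGC, and matches are in capitals. Both windows are the 250 bases before a RefSeq transcript start on the minus strand of GRCm38.p6, 5′ to 3′, at chr10:128705052-128705301 for Cdk2 and chr13:29986064-29986313 for E2f3.
Cdk2: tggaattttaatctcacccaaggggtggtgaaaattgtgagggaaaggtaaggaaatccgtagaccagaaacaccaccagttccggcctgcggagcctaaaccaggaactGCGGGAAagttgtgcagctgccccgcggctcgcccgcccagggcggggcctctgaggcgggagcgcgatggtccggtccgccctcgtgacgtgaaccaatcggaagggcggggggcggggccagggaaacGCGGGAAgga
E2f3: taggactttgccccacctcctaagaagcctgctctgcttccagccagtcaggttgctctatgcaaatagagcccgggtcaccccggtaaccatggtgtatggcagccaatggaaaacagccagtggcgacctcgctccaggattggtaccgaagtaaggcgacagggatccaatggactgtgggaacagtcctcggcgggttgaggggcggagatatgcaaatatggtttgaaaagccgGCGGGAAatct
Cdk2 has 2 matches and this window of E2f3 has 1, all of them in the reverse orientation. Of all these windows, 7.89% hold at least 1 of these words and 0.776% hold at least 2. Neither window of Ccnd3, nor those of Cdk4, Cdk6 and Ccne1 or that of an inner start of E2f1, holds one.

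E2f1 (chr2:154559400-154569892), an activating E2F factor whose own gene is switched on at the G1 to S step, was read in 12 of 20 E12, 20 of 26 E15 and 14 of 19 transplanted cells. Median cells had 84.2, 37.7 and 67.1 CPM and the highest cells 779, 554 and 551 CPM, with cells at 0 in each group. A read was found in 9 of 15 E15 and 9 of 14 transplanted cells outside the many-gene libraries, with medians of 2.75 and 55.9 CPM. The group medians differed less than the cells of any group among themselves. Sums were 102 CPM (93.1 to 111) in E12, 55.7 (53.3 to 58.1) in E15 and 106 (100.1 to 111) in transplanted cells. The E15 over E12 log2 ratio was -0.86, and -0.92 without the many-gene libraries. Transplanted cells were 1.90 times (1.77 to 2.03) higher than E15 cells and within 1.04 times (0.937 to 1.15) of E12 cells. The transplanted over E12 log2 ratio of 0.05 ran from -0.52 without E12 replicate 5 to 0.61 without E12 replicate 9. It was -0.66 on the mean CPM of cells and 0.85 without the many-gene libraries, so no direction held between these groups. Without the many-gene libraries the transplanted over E15 ratio was 3.45 (3.11 to 3.84), where transplanted cells stood at 184 and E15 cells at 53.4 CPM. Transplanted replicate 19 held 46.3% of the transplanted reads of E2f1 and the log2 ratio over E15 without it was 0.35 in place of 0.91. In the deepest E12 library E2f1 was read 1 time in 1635767 reads, and without that library E12 stood at 152 CPM. Outside the many-gene libraries that replicate 19 held 72.8% of the transplanted reads and E15 replicate 9 held 56.4% of the E15 reads, and the log2 ratio of 1.77 ran from 1.07 without the first to 2.85 without the second.

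E2f3 (chr13:29906575-29986064), a second activating E2F factor, and Ccne1 were read in the fewest cells of the 10 genes. E2f3 had a read in 8 of 20, 13 of 26 and 10 of 19 cells. Median cells had 0, 1.32 and 4.55 CPM and the highest cells 364, 147 and 120.5 CPM. Among cells outside the many-gene libraries, 3 of 15 E15 and 7 of 14 transplanted cells had a read, with medians of 0 and 2.28 CPM. The highest single value was in E12 although the E12 sum was the lowest. Sums were 9.71 CPM (7.16 to 12.9) in E12, 18.4 (17.1 to 19.9) in E15 and 21.3 (18.9 to 24.01) in transplanted cells, from only 48 reads in E12. One cell, E12 replicate 8, held 52.1% of these. E15 over E12 gave a log2 ratio of 0.86, or 1.60 without the many-gene libraries, and transplanted over E12 cells gave 1.06 and 2.01. Leaving out any 1 cell kept E15 over E12 between 0.35 and 1.76. The direction did not hold on other scales, with -0.48 on the mean CPM of cells, -0.54 with cells thinned to 25000 reads and -0.012 on the deposited values. Outside the many-gene libraries E15 replicate 6 held 62.7% of the E15 reads, and the ratio of 1.60 was 0.57 without it.

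Rb1 (chr14:73192858-73325951), whose protein holds E2F factors in check, had the largest difference of the 10 genes between E15 and E12 on summed reads. E12 cells ranged from 0 to 99.9 CPM with a median of 0, and 9 of 20 had a read. E15 cells ranged from 0 to 199.8 CPM with a median of 41.8, and 18 of 26 had a read. Transplanted cells ranged from 0 to 217 CPM with a median of 33.6, and 13 of 19 had a read. Cells at 0 occurred in every group, so the ranges overlapped, while the median was above 0 in E15 and transplanted cells only. Among cells outside the many-gene libraries, 7 of 15 E15 and 8 of 14 transplanted cells had a read. Their medians were 0 and 9.78 CPM, so the E15 median was then 0 as in E12. Sums were 6.07 CPM (4.10 to 8.67) in E12, 71.0 (68.3 to 73.8) in E15 and 42.9 (39.3 to 46.6) in transplanted cells. E15 stood 11.7 times (8.18 to 17.4) and transplanted cells 7.06 times (4.89 to 10.6) above E12. The size depended on the scale: the log2 ratio of E15 over E12 was 3.35 on summed reads, 1.77 on the mean CPM of cells, 1.33 with cells thinned to 25000 reads and 0.37 on the deposited values. Thinned, Cdk2 (-1.74), Ccnd1 (-1.52) and E2f1 (-1.44) differed more than Rb1. Without the many-gene libraries the ratios were 15.03 (10.5 to 22.4) and 4.47 (2.98 to 6.90), with single cells behind much of both. E15 replicate 13 held 58.4% of these E15 reads, and the log2 ratio over E12 was 3.71 with it and 2.90 without it. Transplanted replicate 2 held 55.6% of these transplanted reads, and the log2 ratio over E12 was 1.99 with it and 0.98, under 2-fold, without it. Rb1 was higher than in E12 in 6 of 8 pools at E15 and in 6 of 7 pools in transplanted cells. Most genes were higher on the mean of ratios within pools, 84.5% of all genes in E15 and 72.8% in transplanted cells. Leaving out any 1 cell gave log2 ratios of 2.88 to 3.87 for E15 over E12. The E12 level rests on 30 reads, of which 36.7% came from 1 cell (replicate 14), and the deepest E12 library held 1 read. Thinned to 25000 reads per cell, Rb1 was read in 5 of 18 E12, 11 of 24 E15 and 7 of 17 transplanted cells. All 16 many-gene libraries had Rb1 reads, at 26.1 to 123 CPM. Between transplanted and E15 cells Rb1 was 1.66 times (1.51 to 1.82) lower in the transplanted ones, and 3.36 times (2.79 to 4.08) lower without the many-gene libraries. That last log2 ratio, -1.71, was -2.72 without transplanted replicate 2 and -0.91 without E15 replicate 13.

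**Figure D2:**
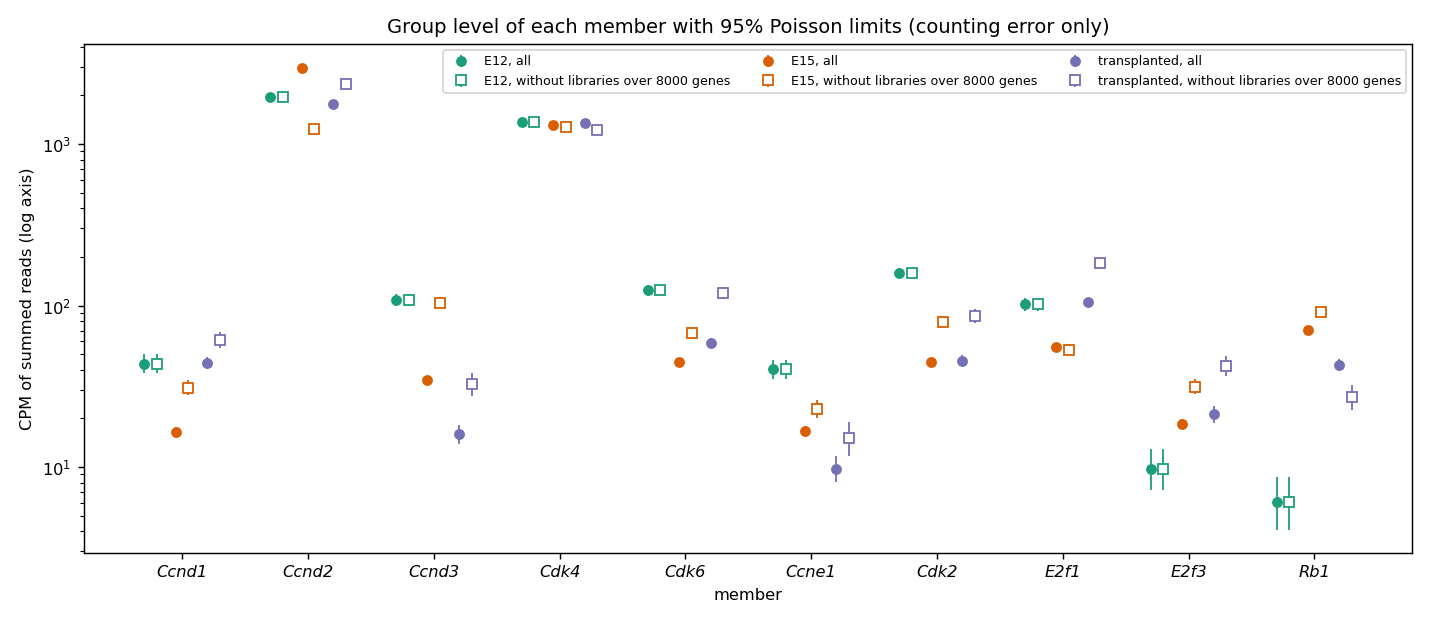
Level of each gene in the 3 groups as CPM of summed reads, on a log axis, with exact 95% Poisson limits for counting error. Filled circles take all libraries and open squares leave out those with more than 8000 genes. Cdk4 stays between 1221 and 1372 CPM in every case, Rb1 is lowest in E12, and the E15 level of Ccnd2 moves from 2977 to 1245 CPM.

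Counted over the 10 genes, E15 cells were higher than E12 cells in 3 and lower in 7, where 49.03% of all genes were higher and 50.97% lower. Rb1 was at least 2-fold higher and 5 genes (Ccnd1, Ccnd3, Cdk6, Ccne1 and Cdk2) at least 2-fold lower, 6 in all, where 45.6% of the 10193 genes with at least 5 CPM in either group were 2-fold different, 25.3% of them higher and 20.3% lower as shares of all. The count of 6 is thus close to the share over all genes. The median log2 ratio of the members was -1.04 against -0.03 over all genes. Without the many-gene libraries 2 genes, Rb1 and E2f3, were 2-fold higher and none was 2-fold lower, against 45.8% of all genes past 2-fold (24.2% higher and 21.6% lower), and the median was -0.57. E2f3 was no longer 2-fold higher there without E15 replicate 6. Without E12 replicate 5 the median was -0.42, and without pool E it was -0.26.

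Transplanted cells compared with E15 cells, the cells of their own age, differed at least 2-fold in 2 of the 10 genes, with Ccnd1 higher and Ccnd3 lower, where 16.5% of all genes were past 2-fold (4.71% higher and 11.8% lower). The members' median log2 ratio was 0.03 against -0.08 over all genes. Without the many-gene libraries E2f1 was 2-fold higher and Ccnd3 and Rb1 were 2-fold lower, against 46.7% of all genes (18.7% higher and 28.0% lower), and the median was 0.26. Those values rest on transplanted replicate 19. Without it the median was 0.62, with 3 members 2-fold higher and 1 lower, and Ccnd3, at a log2 ratio of -0.65, was no longer 2-fold lower. Against E12 cells, the age of the host, transplanted cells differed 2-fold in 6 of 10 genes, where 47.6% of all genes did (22.9% higher and 24.7% lower). E2f3 and Rb1 were higher and Ccnd3, Cdk6, Ccne1 and Cdk2 lower, and the median was -0.09 for the members and for all genes. Outside the many-gene libraries E2f3 and Rb1 were again 2-fold higher and Ccnd3 and Ccne1 2-fold lower, against 52.3% of all genes (22.5% higher and 29.8% lower). Of these, Rb1 fell under 2-fold without transplanted replicate 2, and Ccnd3 (-0.71) and Ccne1 (-0.24) did so without transplanted replicate 19. The 3 comparisons share cells, each group standing in 2 of them. With all libraries, the number of members past 2-fold in either direction was in each of them close to the share over all genes. Those counts thus say nothing particular about the members. By direction, 5 of 10 members were 2-fold lower in E15 than in E12 cells, against 20.3% of all genes. Without the many-gene libraries it was 0 of 10, against 21.6%, and this difference was not tested.

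**Figure D3:**
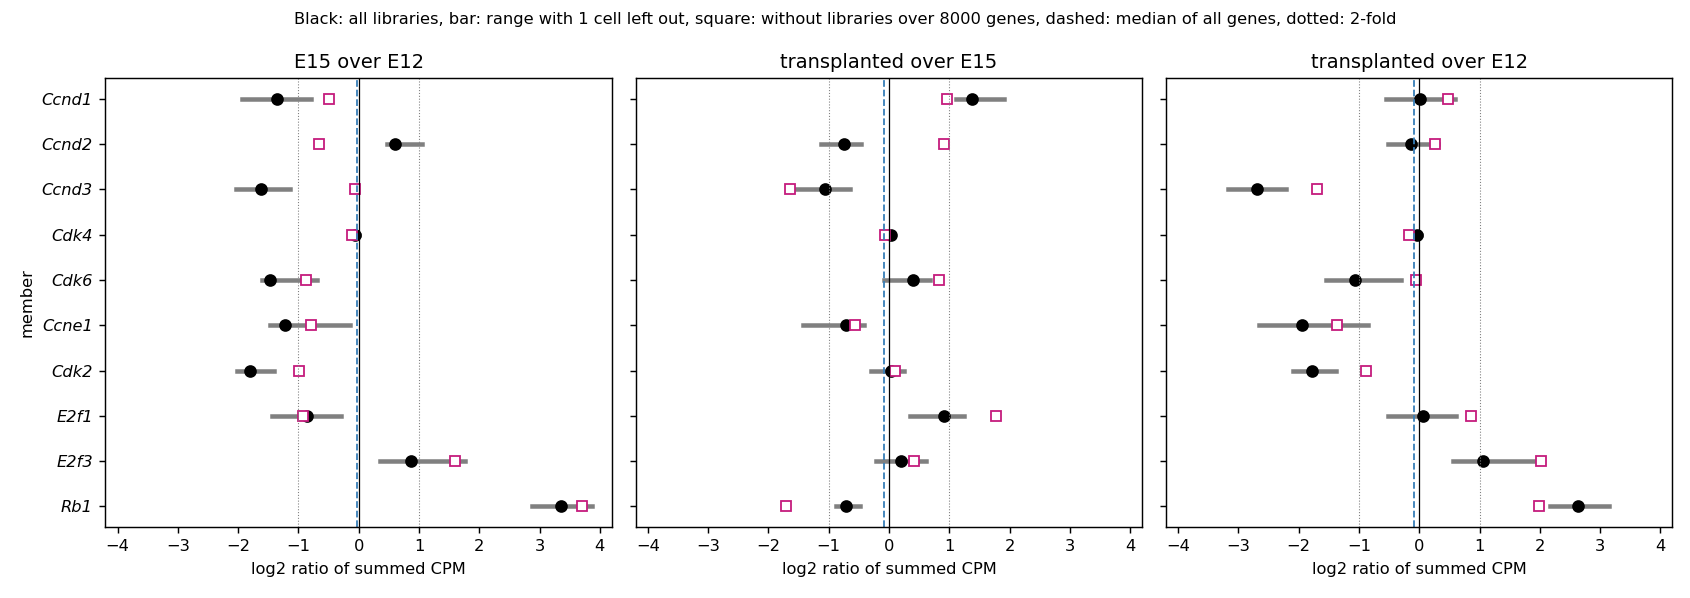
Log2 ratio of summed CPM for each gene in the 3 comparisons, on the horizontal axis. Black points take all libraries, grey bars span the values with any 1 cell left out, open squares leave out the libraries with more than 8000 genes, the dashed line is the median over all genes and dotted lines mark 2-fold. Rb1 stands to the right of the 2-fold line in both comparisons with E12, and Ccnd2 changes side in E15 over E12.

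Other genes of the pathway were taken from lists, given here by counts beside the share of all genes. In E15 over E12, 49.03% of all genes were higher and 50.97% lower, 25.3% and 20.3% by 2-fold, and outside the many-gene libraries 49.7% stood higher and 50.3% lower, 24.2% and 21.6% by 2-fold. Of 22 measured E2F target genes, which encode the machinery of DNA replication and nucleotide supply, all 22 were lower in E15 than in E12 cells and 11 were at least 2-fold lower, with a median log2 ratio of -1.004. Tk1, thymidine kinase, stood at 174 CPM in E12 and 35.8 in E15, and Cdc6, which loads the replicative helicase, at 48.2 and 12.3 CPM. The helicase subunit Mcm7 stood at 692 and 356 CPM and the dUTPase Dut at 726 and 353 CPM. Outside the many-gene libraries the 4 stood at 57.7, 13.97, 379 and 437 CPM in E15, in the same order. There 21 of the 22 were lower and 5 were 2-fold lower, with a median of -0.85, and without E12 replicate 5 the median was -1.06. In transplanted over E15 cells 19 of the 22 were higher, 3 of them 2-fold (median 0.41, against 44.4% of all genes higher and 4.71% 2-fold higher), but this depended on transplanted replicate 19. With that cell left out 8 were higher and 14 lower, and the median was -0.03. With the many-gene libraries left out 20 of the 22 were higher, against 45.7% of all genes. It was 18 of 21 when that cell was left out too. In transplanted over E12 cells 20 were lower, against 52.8% of all genes, with a median of -0.66. Outside the many-gene libraries 13 stood higher and 9 lower, against 45.3% and 54.7% of all genes. With transplanted replicate 19 left out too, however, 6 stood higher and 16 lower, with a median of -0.29.

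Upstream windows were found for 19 of the 23 listed E2F target genes, and 9 of these genes (47.4%) had at least 1 of the E2F-type words given above for Cdk2, against 9.01% of all genes with a window. For CACGTG the numbers were 1 of 19 (5.26%) and 6.86%. The share with an E2F-type word ranged over the other lists from 16.7% (other G1 to S cyclins and kinases, 1 of 6 genes) to 56.7% (S-phase genes). The S-phase list, however, has many genes in common with the E2F target list. Among the other E2F, DP and pocket protein genes, a list with no gene in common with it, the share was 50% (4 of 8 genes). A share above that of all genes was thus not particular to the E2F target genes.

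The remaining E2F, DP and pocket protein genes were lower in E15 than in E12 in 8 of 9 measured, 3 of them 2-fold, and their median log2 ratio was -0.77. The share past 2-fold is not far from the 20.3% of all genes. E2f7 and E2f8, repressing E2F factors that appear in S phase, stood at 96.7 and 34.0 CPM in E12 and at 17.02 and 5.90 CPM in E15. Tfdp1 and Tfdp2, the DP partners of E2F proteins, stood at 109 and 188 CPM in E12 and at 63.6 and 108 CPM in E15. Without the many-gene libraries 8 of 9 were lower as well, with a median of -0.58, and in E15 these 4 genes stood at 19.5, 1.27, 101 and 126 CPM. Among other G1 to S cyclins and kinases, 4 of 8 were higher and 4 lower (median -0.06). With many-gene libraries left out 3 stood higher and 5 lower. Ccne2, the second cyclin E, went from 43.5 to 8.27 CPM and cyclin A2 (Ccna2) from 341 to 192 CPM, whereas Cks1b, a small kinase-binding subunit, went from 265 to 329 CPM. In libraries of up to 8000 genes the 3 stood at 12.2, 171 and 251 CPM in E15, so Cks1b was then below its E12 level.

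Of the CDK inhibitors, 5 of 7 were measured, and 3 were higher and 2 lower at E15, with or without the many-gene libraries. In transplanted over E15 cells 1 was higher and 4 lower, but 3 were higher and 2 lower without those libraries. That turn depended on transplanted replicate 19. With this cell left out too, 1 was higher and 4 lower, with a median of -0.98. Of all genes 44.4% were higher in that comparison, and 45.7% without those libraries. Cdkn1a, the inhibitor p21, stood at 2.63 CPM in E12, 26.4 in E15 and 10.6 in transplanted cells. Cdkn1c, an inhibitor that promotes cell cycle exit, stood at 180 CPM in E12, 78.3 in E15 and 108 in transplanted cells, and Cdkn2c, which binds Cdk4 and Cdk6, at 70.4, 42.6 and 18.7 CPM. Once many-gene libraries were left out, Cdkn1a stood at 10.1 CPM in E15 and 13.8 in transplanted cells. Cdkn1c then stood at 70.4 and 44.4 CPM, so that its direction between transplanted and E15 cells turned, as did that of Cdkn1a. Cdkn2c stood at 26.9 and 17.03 CPM. Of 12 genes for the breakdown of G1 regulators 5 were higher and 7 lower (median -0.13). When the libraries above 8000 genes were left out, 6 stood higher and 6 lower. Ambra1, which directs D-type cyclins to degradation, stood at 43.7 CPM in E12, 19.05 in E15 and 6.45 in transplanted cells, and at 14.7 and 3.23 CPM in the last 2 groups without those libraries. Of 12 genes acting upstream of D-type cyclins 5 were higher and 7 lower. Of 11 measured without those libraries 4 stood higher and 7 lower. Foxo1, which restrains the cell cycle when growth signals are absent, stood at 1.62 CPM in E12 and 16.2 in E15, while the kinase Akt1 stood at 319 and 291 CPM. In E15 they stood at 30.8 and 233 CPM without the many-gene libraries.

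Whether a member's level in a cell followed its position in the cell cycle was described by its correlation with the summed level of 40 S-phase genes and of 42 G2 and M genes in the tables, on log2(CPM + 1) over the 65 cells with group means removed. Cells share library depth and group, so these values are descriptions without a test. Ccnd2 had the highest Pearson correlation with the S genes, 0.56 (Spearman 0.34), and 0.48 (0.30) with the G2 and M genes. Cdk4 followed with 0.49 (0.35) and 0.47 (0.32). E2f1 stood closer to the G2 and M genes, 0.40 (0.40), than to the S genes, 0.20 (0.17). Ccnd1 had 0.07 and 0.11. Ccnd3 was the only one of the 10 below 0 for both lists over all 65 cells, at -0.15 for S and -0.44 for G2 and M genes, and -0.16 and -0.36 when pool means were removed too. With cells thinned to 25000 reads its value for S genes was 0.09.

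**Figure D4:**
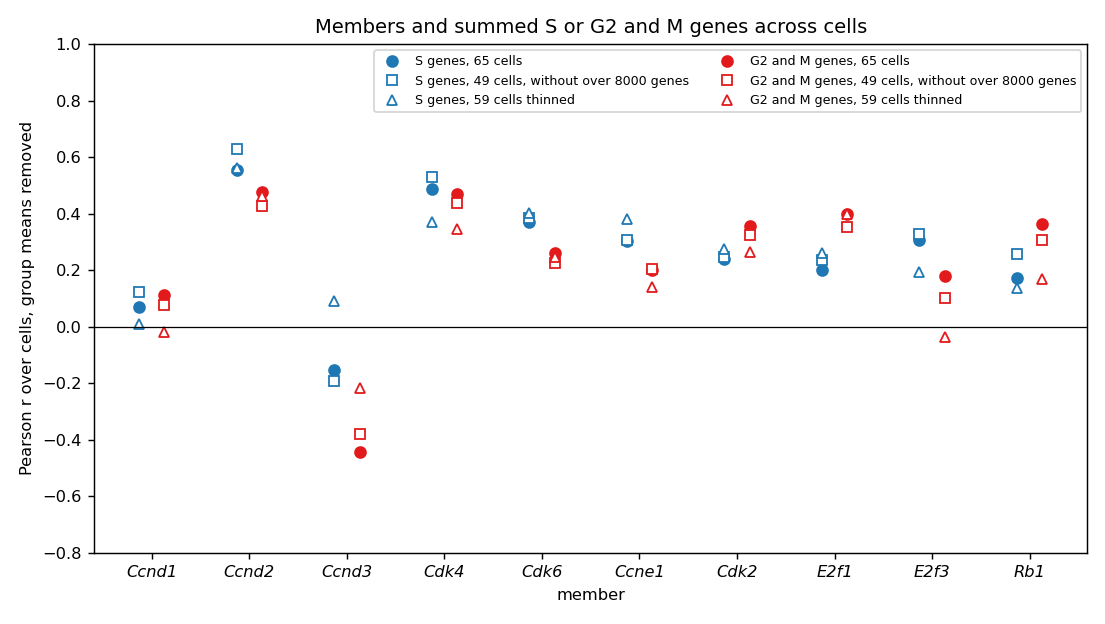
Pearson correlation across cells, on the vertical axis, of each of the 10 genes with summed S genes (blue) and summed G2 and M genes (red), with group means removed. Circles take 65 cells, squares the 49 cells without many-gene libraries and triangles 59 cells thinned to 25000 reads. Ccnd2 and Cdk4 are highest for the S genes over 65 cells, and Ccnd3 is lowest for both lists over 65 cells.

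Ccnd2 and Cdk4, cyclin and kinase of one complex, also correlated with each other across cells (0.66 over 65 cells, 0.69 over 49 cells and 0.65 with pool means removed). E15 replicate 3, which had 0 reads of both genes, is in each of these values and in those below. Such a cell can raise a Pearson correlation, and no value without it was computed. Among 5191 genes read in at least 33 cells, those most like Ccnd2 were Hmgb2 (0.68), a chromatin protein of dividing cells, Pcna (0.63), the sliding clamp of replication, and Hnrnpab (0.61). Those most like Cdk4 were Hnrnpab (0.79), Ywhae (0.75) and Hmgb2 (0.73), so that both members had Hnrnpab and Hmgb2 among their first 3. For E2f1 the nearest gene was Atad2 (0.67), for Cdk6 Pold3 (0.62), for Rb1 Slc25a46 (0.69), for Ccnd1 Rap1a (0.61) and for Cdk2 Nck2 (0.59). Ccne1 and E2f3 were read in too few cells to be compared in this way.

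Ccnd3 had the closest neighbour of all, Lipe, the gene of hormone-sensitive lipase, with a correlation of 0.86 over 65 cells and 0.85 over the 49 cells without many-gene libraries. Akap5 (0.69) and Csmd2 (0.66) came next. These genes were high in the same pool: pool E held 74.7% of all Lipe reads, and its cells had a median of 1011 CPM of Lipe against 23.9 CPM over the other 56 cells. All 16 many-gene libraries are among those 56 cells, with a median of 13.4 CPM of Lipe against 91.6 CPM in the other 49 libraries. E15 replicate 24, highest in Ccnd3, also had 13051 CPM of Lipe and 1743 CPM of Akap5. The correlation of Ccnd3 with Lipe was 0.65 with pool means removed as well. Pool and group cannot be fully told apart for transplanted cells, of which pool E holds 1.

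**Figure D5:**
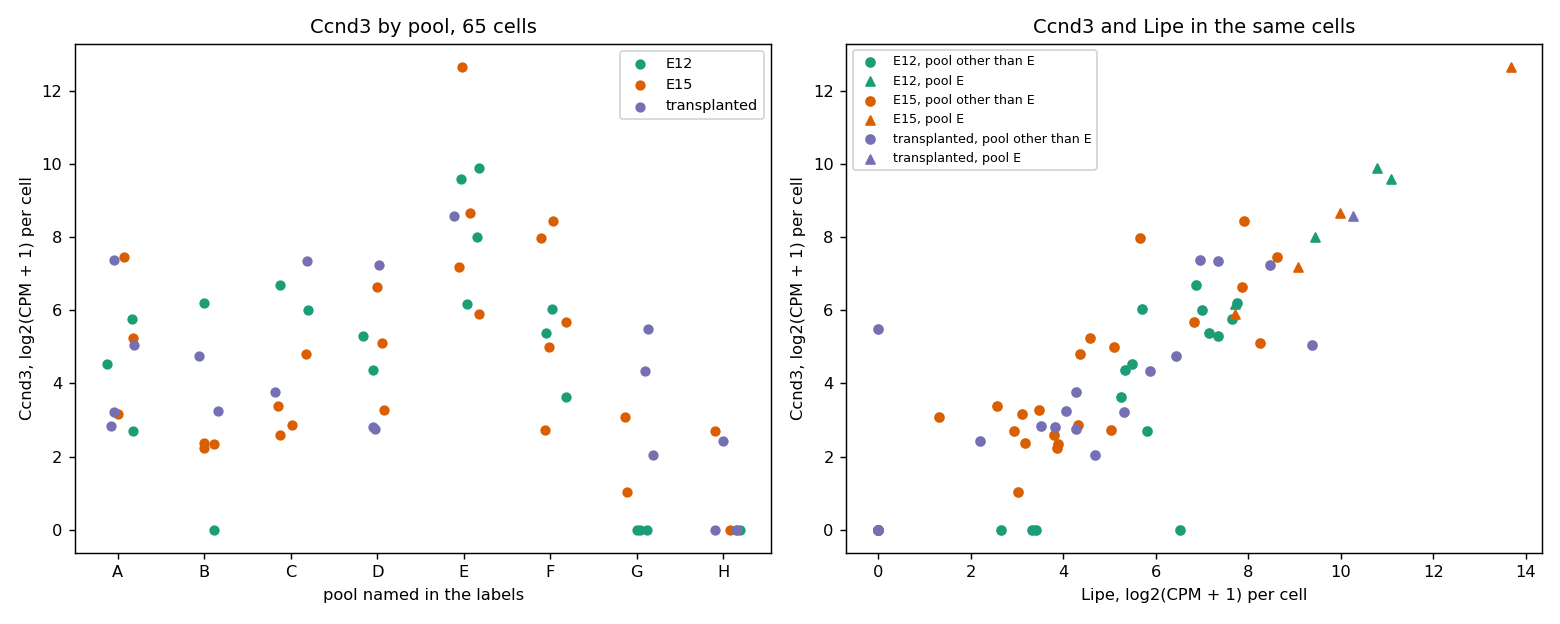
Left, Ccnd3 as log2(CPM + 1) in each of the 65 cells by the pool named in the labels, coloured by group. Right, Ccnd3 against Lipe in the same cells, both as log2(CPM + 1), with the 9 cells of pool E as triangles. Every cell of pool E has at least 59.1 CPM of Ccnd3, and the cells at the upper right of the Ccnd3 and Lipe plot are mostly those of pool E.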

How the data were processed

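Libraries of single cells were made with a SMART-Seq 3′ kit and Nextera XT, per the labels' protocols, and STAR, HTSeq and the mm10 build were used, per the submitters' processing notes, with versions not given in the sources used here. The deposited values are on a log10 scale and are residuals, as the values themselves show: per cell, log10 of 1 plus reads scaled to 100000, centred per gene over the 65 cells, with 2 further directions over cells removed. The design had assumed such values and planned a recovery of reads. Whole reads were recovered for all 10407 genes, 10034 from cells at 0 and 373 by search, with 100% of 356667 non-zero values within 0.01 of a whole number. The tables held 94.0% to 99.3% of the implied library totals, and 0 columns were left unmapped. Only genes in the tables, each read in at least 6 cells, were analysed here.

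Reads of a group were summed and scaled to CPM, with a pseudocount of 1 CPM in log2 ratios and a minimum of 5 CPM in either group for counts. Exact Poisson, binomial and conditional binomial limits cover the counting error of reads only. With no animal named there was no test and no check of replication. All 10 members are named. Other genes are those 3 most correlated with each member read in at least 33 cells, and up to 4 per list by level or ratio. The members and lists were chosen with earlier results of these data known, and leaving out pool E was chosen after seeing the data. The recovery and the ratios were tested on simulated reads, drawn from 1 profile shared by all cells apart from set folds. Differences between cells of a group other than depth were not simulated. Promoter windows and gene positions are RefSeq's on GRCm38.p6. Computation used Matplotlib 3.10.9, Numba 0.67.0, NumPy 2.4.6, pandas 2.3.3, Python 3.11.15 and SciPy 1.17.1.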

Additional observations from a re-analysis of the deposited data

How the results depend on the processing

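No paired analysis was possible because no result comes from a test. Pools recur across groups, and the ratios within pools given here compare cells of the same pool. The members' median log2 ratio of E15 over E12, -1.04, was -0.38 on the mean CPM of cells, -0.77 with cells thinned to 25000 reads, -0.22 on the deposited log10 values, -0.14 as a mean of ratios within pools, -0.57 without libraries above 8000 genes, -0.26 without pool E and -1.21 to -0.42 with 1 cell left out. The count of 6 members past 2-fold was 0 on deposited values, 3 within pools, 2 without those libraries and 5 to 7 with 1 cell left out. Of all measured genes, 401 of 10193 were past 2-fold on deposited values, 6411 of 10193 within pools and 4494 of 9819 without those libraries. For transplanted over E15 cells the median of 0.03 was 0.20 on mean CPM, 0.49 thinned, 0.11 with median-of-ratios factors, -0.23 within pools, 0.26 without those libraries and -0.19 to 0.14 with 1 cell left out. The count of 2 was 0 thinned and on deposited values, 1 with median-of-ratios factors, with a pseudocount of 5 CPM and without the 10 shallowest cells, 3 without those libraries, and 1 to 3 with 1 cell left out. All measured genes gave 3711 of 10108 thinned, 408 of 10163 on deposited values and 4577 of 9799 without those libraries. They gave 1624 of 10158 with median-of-ratios factors, 989 of 10163 with that pseudocount and 1712 of 10158 without those shallow cells. For transplanted over E12 cells the median of -0.09 was -0.36 on mean CPM, 0.043 with TMM factors, 0.015 with median-of-ratios factors, 0.11 without those libraries and -0.41 to -0.029 with 1 cell left out. The count of 6 was 3 on mean CPM and without pool E, 2 thinned, 0 on deposited values, 4 without those libraries and 3 to 6 with 1 cell left out. All measured genes gave 4388 of 9880 on mean CPM, 4495 of 9903 without pool E and 4764 of 9688 thinned. They gave 353 of 9931 on deposited values and 5019 of 9594 without those libraries.

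Single genes whose 2-fold difference changed sign were, for E15 over E12, Ccnd3 (1.30 on mean CPM, 0.81 on deposited values, 0.048 without pool E), Cdk6 (0.13 on mean CPM, 0.47 thinned, 0.56 on deposited values) and Ccne1 (0.39 on deposited values). For transplanted over E15 cells it was Ccnd3 (0.15 thinned, 0.66 within pools). For transplanted over E12 cells they were Cdk6 (0.39 on mean CPM, 1.12 thinned, 0.48 on deposited values) and Ccnd3 (0.12 on deposited values, 0.34 within pools). The cause was not tested. Rb1 and Cdk2 kept their direction against E12 in all 13 planned settings. Among these, the changed pseudocounts and filters on low values could not change the direction of a single gene. Ratios within pools shift all genes, whose medians were 1.33, -0.63 and 0.80 in the 3 comparisons. The number of members read in at least 50% of the cells of every group, 7, was 3 after thinning. The Ccnd2 share of D-type cyclin reads was 88.5%, 87.1% and 95.4% on mean CPM in the 3 groups, and 90.2% in E15 and 96.2% in transplanted cells without libraries above 8000 genes. Rb1 and E2f3 had 30 and 48 reads in E12, which limits the precision of their ratios.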

Other observations

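Counted per cell, the 10 genes had reads in a median of 7 members in E12, 8.5 in E15 and 7 in transplanted cells, and all 10 were read in 9 E15 cells, 1 transplanted cell and 0 E12 cells. Thinned to 25000 reads per cell, which left 18, 24 and 17 cells, the medians were 4.5, 5 and 5.

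The deepest E12 library (replicate 5, pool E) was lopsided among the members. Its 1635767 reads held 4939 reads of Ccnd2, 2231 of Cdk4, 374 of Cdk6, 256 of Cdk2 and 138 of Ccne1, but 1 read each of E2f1, E2f3 and Rb1 and 0 of Ccnd1. The other E12 cells summed to 152 CPM of E2f1, 65.3 of Ccnd1 and 8.77 of Rb1.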
